A study of Mus musculus with 2 samples.

Results

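Imprinted genes are transcribed mainly from the copy inherited from 1 parent, and their open chromatin was described here in the limb of the mouse embryo at 11.5 days. The members were 46 genes taken by symbol from a list, 40 protein-coding and 6 noncoding RNA genes, out of 55413 genes in the GENCODE M21 annotation of the mm10 genome. They lie in 19 imprinted clusters on 10 chromosomes, and 9 of the clusters are represented by 1 gene each. The rule names the genes and uses no measured value, but the genes were chosen with earlier results of these data known.

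The study mapped accessible DNA with DNase-seq, which sequences the fragments released when the nuclease DNase I cuts chromatin that is open. It has a single group, whole limb tissue of healthy B6NCrl embryos with the sexes pooled, and 2 biological replicates of it. Nothing in the lists separates the alleles, so a peak can come from the maternal copy, the paternal copy or both. With 1 group and 2 libraries there is no contrast and no test, and every comparison with other genes below is a description of these libraries. The mixture of cells in a limb bud cannot be told apart from the accessibility of each cell.

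Imprinting rests on differentially methylated regions. A mark set in egg or sperm, the germline region, is kept through development by the zinc finger protein ZFP57 with its cofactor TRIM28 and by the maintenance methyltransferase DNMT1. The unmethylated copy of such a region is often a promoter, or an insulator bound by CTCF as upstream of H19. Many imprinted genes act on fetal growth and on placenta, and several, such as Igf2, Dlk1, Grb10 and H19, are known to be strongly expressed in embryonic mesoderm.

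The sequences of 13 peaks found in both libraries are printed first, because they hold short words known from imprinting control regions. All are the reference sequence of GRCm38.p6 from RefSeq, the mm10 assembly, on the plus strand. Capitals mark the words searched on both strands, which were TGCCGC for ZFP57, GCCATNTT for YY1, and GGNGGCAG and GGNGGCGC for CTCF. Words can overlap, since the ZFP57 word may lie inside a CTCF word.

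H19, a noncoding RNA gene of chromosome 7 on the minus strand, has its paternally methylated control region upstream of the start. The 3 intergenic peaks there, at chr7:142580216-142580365, chr7:142580656-142580825 and chr7:142581716-142581865, held 1 GGNGGCAG each. Their centres lay at -2148, -2598 and -3648 bp from the start.
H19 upstream -2148 bp: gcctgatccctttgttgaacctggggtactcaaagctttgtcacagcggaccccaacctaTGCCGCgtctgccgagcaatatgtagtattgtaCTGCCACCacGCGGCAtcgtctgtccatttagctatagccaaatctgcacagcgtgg
H19 upstream -2598 bp: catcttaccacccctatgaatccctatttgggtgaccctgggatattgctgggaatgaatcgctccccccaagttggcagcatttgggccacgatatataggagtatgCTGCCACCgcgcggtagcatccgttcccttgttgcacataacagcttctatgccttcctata
H19 upstream -3648 bp: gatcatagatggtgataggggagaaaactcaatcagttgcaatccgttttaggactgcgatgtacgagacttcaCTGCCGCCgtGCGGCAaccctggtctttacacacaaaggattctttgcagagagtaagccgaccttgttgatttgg

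Peg3, a zinc finger gene on the minus strand of chromosome 7, has a known run of YY1 words in its first intron. The 4 peaks at chr7:6729516-6729665, chr7:6728716-6728905, chr7:6728376-6728545 and chr7:6727876-6728025 held 1, 2, 2 and 2 of them, at 828, 1608, 1958 and 2468 bp into the gene.
Peg3 first intron 828 bp: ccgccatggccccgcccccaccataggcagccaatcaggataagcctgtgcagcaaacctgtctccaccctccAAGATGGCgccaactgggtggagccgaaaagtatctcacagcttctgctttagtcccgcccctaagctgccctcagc
Peg3 first intron 1608 bp: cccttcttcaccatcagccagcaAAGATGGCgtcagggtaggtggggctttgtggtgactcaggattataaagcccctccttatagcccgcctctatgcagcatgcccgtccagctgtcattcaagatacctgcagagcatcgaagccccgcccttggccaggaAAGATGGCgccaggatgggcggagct
Peg3 first intron 1958 bp: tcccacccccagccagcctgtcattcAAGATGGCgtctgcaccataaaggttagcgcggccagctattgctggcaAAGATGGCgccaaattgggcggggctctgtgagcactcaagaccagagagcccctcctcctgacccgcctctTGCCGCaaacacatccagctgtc
Peg3 first intron 2468 bp: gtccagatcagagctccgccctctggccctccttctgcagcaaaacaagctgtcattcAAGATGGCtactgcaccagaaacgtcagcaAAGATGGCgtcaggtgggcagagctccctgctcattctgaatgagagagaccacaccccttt

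Of 106 promoter peaks of members in which the word was counted within the peak, 6 held the ZFP57 word 2 times, or 5.66%, against 1.63% of 29574 promoter peaks of all protein-coding genes with 2 or more. Printed are the 5 at members known to have a germline region at or near that start, Snrpn at chr7:60005076-60005225, Kcnq1ot1 at chr7:143295676-143295845, Mest at chr6:30737956-30738125, Nap1l5 at chr6:58906976-58907145 and the inner start of Inpp5f at chr7:128688356-128688505. The centre of the Kcnq1ot1 peak lay 788 bp into the gene, and those of the other 4 between -58 and 15 bp from a start. The sixth, 426 bp into Ascl2 with signals of 102 and 89, is at a gene with no germline region of its own. The word was also present 2 times in 2 peaks inside the members H13 and Trappc9, at a start of Mcts2 and of Peg13. Both H13 and Trappc9 are known to have a germline region inside the gene. A further 4 intergenic peaks held the word 2 times, among them the nearest and the farthest of those upstream of H19. The authors' signals in replicates 1 and 2 were 102 and 99 for the Mest peak, 57 and 50 for the Kcnq1ot1 peak and 40 and 29 for the Nap1l5 peak.
Snrpn start: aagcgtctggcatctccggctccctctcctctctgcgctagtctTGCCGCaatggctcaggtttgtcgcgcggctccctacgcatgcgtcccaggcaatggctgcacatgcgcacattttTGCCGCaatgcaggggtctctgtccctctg
Kcnq1ot1 start: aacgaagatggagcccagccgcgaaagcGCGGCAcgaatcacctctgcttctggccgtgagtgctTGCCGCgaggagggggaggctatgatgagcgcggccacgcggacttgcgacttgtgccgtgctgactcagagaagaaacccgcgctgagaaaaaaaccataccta
Mest start: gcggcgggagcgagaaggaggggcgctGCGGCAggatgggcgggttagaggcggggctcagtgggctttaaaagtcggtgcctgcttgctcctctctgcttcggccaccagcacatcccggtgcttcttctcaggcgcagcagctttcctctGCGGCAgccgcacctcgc
Nap1l5 start: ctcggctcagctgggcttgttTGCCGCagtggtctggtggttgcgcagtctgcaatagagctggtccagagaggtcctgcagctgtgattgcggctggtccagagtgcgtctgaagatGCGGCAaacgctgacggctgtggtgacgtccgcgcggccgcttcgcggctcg
Inpp5f inner start: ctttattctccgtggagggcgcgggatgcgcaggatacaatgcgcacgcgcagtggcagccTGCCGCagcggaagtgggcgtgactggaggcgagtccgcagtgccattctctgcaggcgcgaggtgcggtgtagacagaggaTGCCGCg

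The last is an intergenic peak at -13380 bp from a start of the noncoding RNA gene Meg3, at chr12:109527536-109527705, in the stretch where the germline control region of the Dlk1-Dio3 cluster is known to lie. It held 1 ZFP57 word within a short repeated unit.
Meg3 upstream: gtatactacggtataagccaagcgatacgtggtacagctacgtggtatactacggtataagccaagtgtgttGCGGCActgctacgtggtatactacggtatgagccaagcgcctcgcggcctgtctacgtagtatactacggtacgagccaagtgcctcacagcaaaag

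Replicate 1 held 174430 peaks and replicate 2 held 167369 on the 21 named chromosomes, and their overlapping peaks merged into 118491 shared peaks. Each peak carries the authors' signal, from 2 to 149 with medians of 47 and 39, whose scale is not stated. It is therefore compared between libraries only as a percentile within its own list, and wherever 2 signals or percentiles are joined by "and" below, the first is that of replicate 1 and the second that of replicate 2. The tissue label was set beside markers, which were chosen with earlier results of these data known. All 8 limb mesenchyme markers (Prrx1, Prrx2, Twist1, Msx1, Tbx5, Tbx4, Pitx1 and Lmx1b) had a shared promoter peak, against 1 of 8 markers of liver, blood, endothelium and neurons. That 1 was Neurod1, with signals of 78 and 66, and its part in the results was not tested. Over all protein-coding genes the share with a shared promoter peak was 67.9%.

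A promoter peak was centred within 1 kb of any annotated transcript start. Of the 40 protein-coding imprinted genes 38 had a shared promoter peak, or 95%, against 67.9% of all 21938 protein-coding genes. Of the 6 noncoding members 4 had one, against 33.1% of 9603 noncoding RNA genes. The 38 protein-coding genes had a peak in each library alone, where the shares of all protein-coding genes were 69.5% in replicate 1 and 69.9% in replicate 2.

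The number of annotated starts differed between the sets, with a median of 4.5 for protein-coding members and 3 for all protein-coding genes. It was 9 for noncoding members and 1 for all noncoding RNA genes, so their shares of genes with a promoter peak cannot be compared directly. Among protein-coding genes with 1 or 2 starts 9 of 11 members had a shared promoter peak, against 42.1% of all. With 3 to 5 starts the count was 12 of 12 against 77.6%, with 6 to 10 starts 12 of 12 against 94.0%, and with 11 or more 5 of 5 against 98.4%. The gap between members and all genes was thus widest among genes with few starts.

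The strongest promoter peak of a member was high in its list, with a median percentile slightly below that of all protein-coding genes. Over the 42 members with one, its median percentile was 93.2 in replicate 1 and 92.1 in replicate 2. Over the 38 protein-coding members it was 93.5 and 92.5, against 94.8 and 95.1 for all protein-coding genes with a promoter peak. Members at or above the 90th percentile in both libraries numbered 22 of 38, or 57.9%, against 66.4% of all. At or above the 95th percentile were 12 of 38 members in each library, against 49.1% and 50.1% of all.

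**Figure D1:**
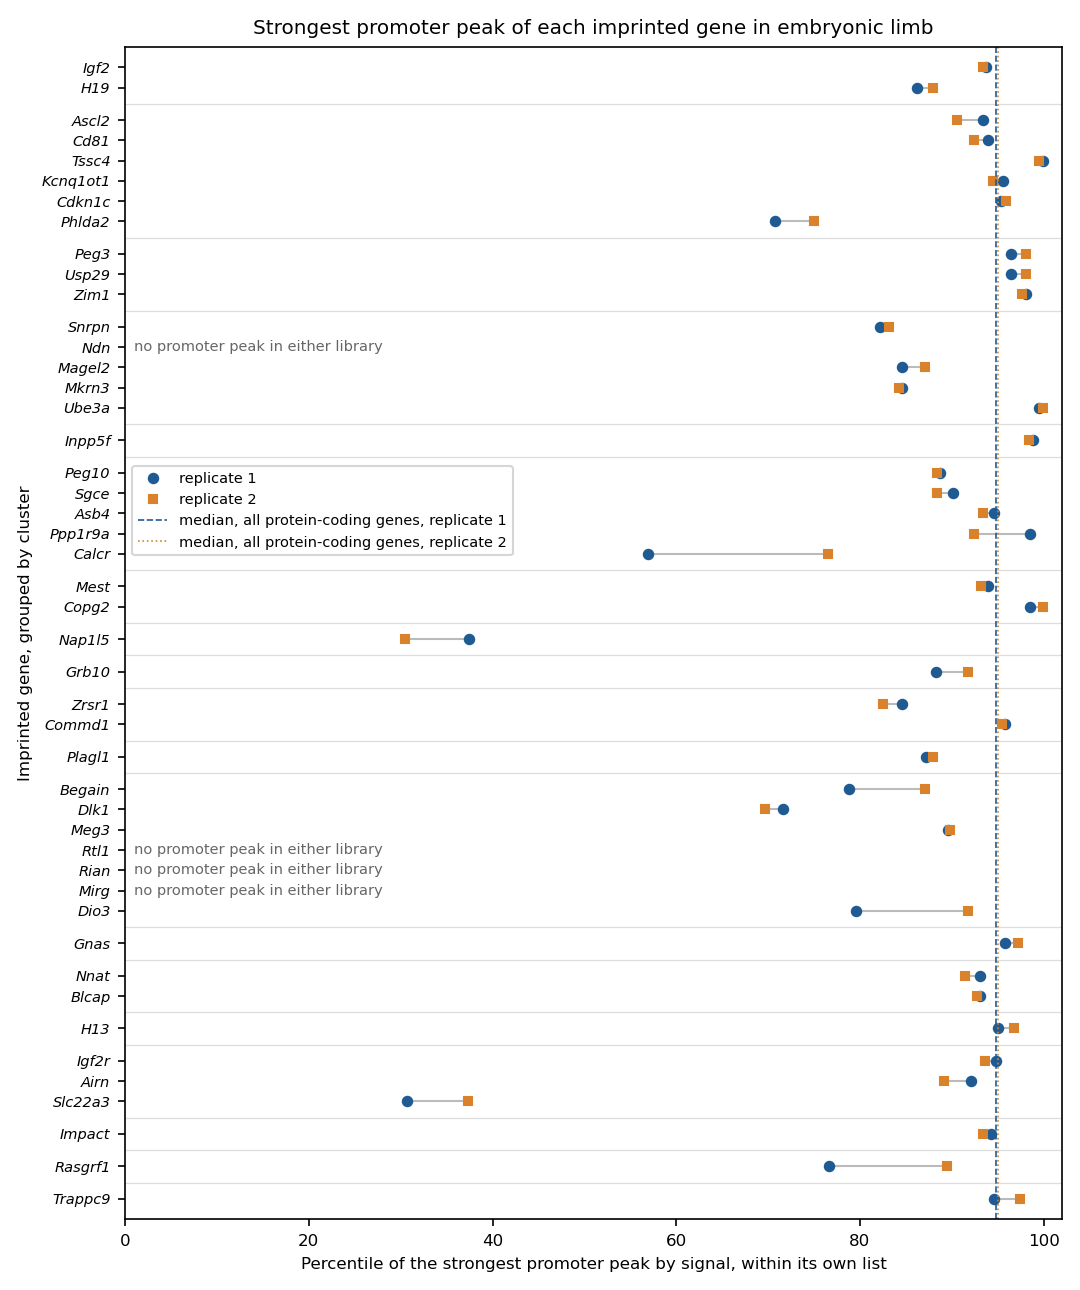
Percentile of the strongest promoter peak (horizontal axis, by deposited signal within its own list) for each imprinted gene, grouped by cluster, with circles for replicate 1 and squares for replicate 2. Most of the 42 genes with a peak lie above the 80th percentile in both libraries, Nap1l5 and Slc22a3 lie below the 50th in both, and 4 genes have no promoter peak; vertical lines are the medians of all protein-coding genes, 94.8 and 95.1.

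**Figure D2:**
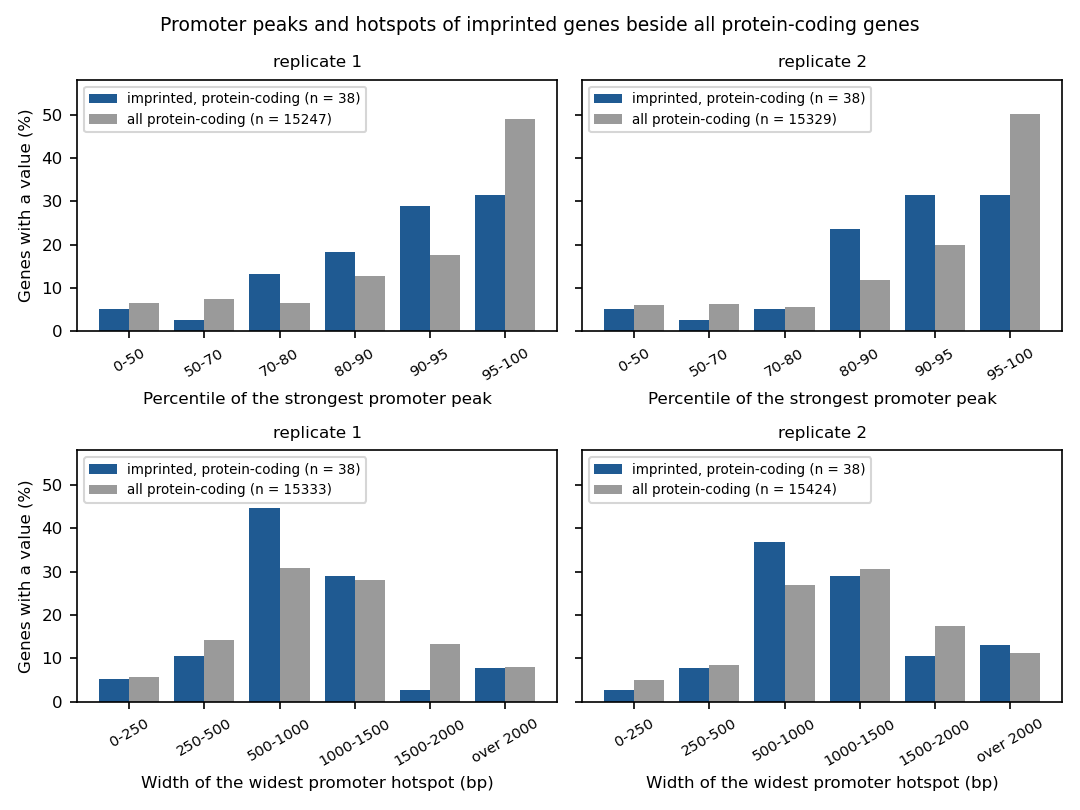
Share of genes (vertical axis, percent of those with a value) by percentile of the strongest promoter peak and by width of the widest promoter hotspot, for protein-coding imprinted genes and for all protein-coding genes in each library. The top bin, 95 to 100, holds 31.6% of imprinted genes in each library against 49.1% and 50.1% of all, and the median widths are 964 and 1130 bp against 991 and 1139 bp.

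Hotspots are the wider regions that the authors deposited beside the peaks. The widest hotspot at the promoter of a protein-coding member had a median of 964 bp in replicate 1 and 1130 bp in replicate 2, against 991 and 1139 bp for all protein-coding genes. Over members it ranged from 181 to 2125 bp and from 194 to 2726 bp. It was wider in replicate 2 in 28 of 42 members, or 66.7%, close to the 66.8% of all protein-coding genes.

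The 4 members with no promoter peak in either library were Ndn, Rtl1, Rian and Mirg. Rtl1, a retrotransposon-derived gene expressed from the paternal copy, and the maternally expressed noncoding RNAs Rian and Mirg lie one after another downstream of Meg3. Rtl1 had 2 shared peaks inside the gene, with signals of 75 and 56 at 3939 bp and 67 and 64 at 4569 bp from its start, both within 1 kb of a start of another gene. Rian had no shared peak in its body and 5 in replicate 2 alone, and Mirg had 1, with a signal of 46 in each library.

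The result for Ndn, which encodes the growth suppressor necdin, depended on the annotation. GENCODE M21 gives it 1 start, and a peak with signals of 92 and 85 in replicates 1 and 2 lay 1712 bp downstream, in its exon at chr7:62348196-62348365. The start in RefSeq is position 62348277, inside that peak and 4 bp from its centre. With RefSeq starts, an alternative chosen after seeing the data, 43 of 46 members had a shared promoter peak. Of the 40 protein-coding ones 39 had it, against 67.2% of 21774 RefSeq protein-coding genes, while Rtl1, Rian and Mirg still had none.

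The weakest promoter peaks were those of Nap1l5 and Slc22a3. Nap1l5, a paternally expressed gene inside an intron of Herc3, had signals of 40 and 29 (percentiles 37.5 and 30.5). Slc22a3, a cation transporter gene that is maternally expressed in placenta, had 37 and 32 (30.7 and 37.3). They were the only members below the median of their list in both libraries. Phlda2, Calcr and Dlk1 came next, with percentiles between 56.9 and 76.5. The members not described one by one below are the placental transcription factor gene Ascl2, the tetraspanin gene Cd81, the retrotransposon-derived Peg10 with its neighbour Sgce, Asb4, Zrsr1, Blcap, Begain and Dio3, which inactivates thyroid hormone. Their strongest promoter peaks lay between percentiles 78.9 and 94.5.

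In the Igf2-H19 cluster Igf2, the fetal growth factor, had the strongest promoter peak, at -12 bp from a start, with signals of 103 in replicate 1 and 100 in replicate 2 (percentiles 93.7 and 93.4). H19 had 85 and 82 at its start. The strongest distal peak, further than 1 kb from any start, lay 28507 bp from the nearest H19 start in an intron of the noncoding gene Nctc1, downstream in the region known for mesodermal enhancers of the pair, with 120 and 112. The 3 peaks upstream of H19 had 90 and 58, 86 and 53, and 77 and 81 in order of distance. The nearer 2 stood at percentiles 88.7 and 86.7 in replicate 1 and 73.3 and 68.7 in replicate 2, a lower rank in replicate 2, and the third at 81.5 and 87.5.

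In the Kcnq1ot1 cluster the strongest promoter peak was that of Tssc4 (138 and 131; percentiles 99.98 and 99.5), a gene imprinted in placenta. Kcnq1ot1, the paternally expressed antisense RNA that silences the cluster, had 110 and 105. Cdkn1c, the cell cycle inhibitor p57, had 109 and 112. The strongest distal peak lay in an intron of Kcnq1, at -9392 bp from the Kcnq1ot1 start, with 104 and 98.

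The Peg3 cluster had strong peaks at its outermost starts and weak or no peaks at inner ones. Zim1, a maternally expressed zinc finger gene, had 121 and 120 at its outer start and 38 and 23 at its inner start, and the shared promoter of Peg3 and Usp29 had up to 114 and 122. The inner starts of Peg3 and Usp29 had no peak in either library. The strongest distal peak lay within Usp29, 99835 bp from its nearest start, with 120 and 120. The peaks with YY1 words in Peg3 had 114 and 106, 88 and 95, 95 and 98, and 73 and 62 with growing distance.

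In the Snrpn-Ube3a cluster Ube3a, a ubiquitin ligase gene whose imprinting is known from neurons, had 129 and 135 (percentiles 99.5 and 99.9). Snrpn, Magel2 and Mkrn3, expressed from the paternal copy, had between 72 and 82. The strongest distal peak by the GENCODE starts was that in the exon of Ndn. This was the sparsest cluster, and Snrpn and Ube3a were the 2 members with no shared peak within 50 kb outside the gene.

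In the Peg10-Sgce cluster the promoter of Ppp1r9a, a neural actin-binding protein, had 123 and 96 at an inner start and up to 86 and 83 at its outermost starts, and the distal peak of highest rank lay 1855 bp into Peg10 with 104 and 112. In the Mest-Copg2 cluster Copg2, a coat protein gene with housekeeping expression, had 123 and 136, against 102 and 99 for Mest. The strongest distal peak there, at -12886 bp from a Mest start, had 93 and 90. In the Dlk1-Dio3 cluster Meg3 had 92 and 87, and the strongest distal peak was an intergenic one 2007 bp past a start of Mirg with 98 and 111. The peak upstream of Meg3 had 97 and 73.

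In the Igf2r-Airn cluster Igf2r, the receptor that clears IGF2, had 107 and 90 at its shared promoter peak of highest mean percentile, at -621 bp from an inner start, and 89 and 101 at its outermost start. The distal peak inside Igf2r, at -15730 bp from a start of Airn, had 108 and 90. Airn, the antisense RNA that silences Igf2r, had 98 and 85 at a start inside Igf2r. In the Gnas locus the strongest promoter peak, at an inner start, had 111 and 118 and the strongest distal one, in an intron, 98 and 89.

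Nnat, next to Blcap, had 101 and 92 at its strongest shared promoter peak, and the strongest distal peak, 28116 bp from a Blcap start, had 100 and 84. For Commd1, a copper and NF-kB regulator that hosts Zrsr1, the promoter had 111 and 110, and a distal peak at -5129 bp from a start had 81 and 70. For Grb10, an adaptor that restrains growth signalling, a promoter peak 373 bp into the gene from an inner start had 89 and 93, and a distal one in an intron had 99 and 99. All 3 promoter peaks stood at or above percentile 88.2 in both libraries.

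The remaining 7 clusters have 1 member each, and promoter values come first here. Inpp5f had 125 and 124, and a distal peak in an intron of Mcmbp 82 and 75. H13 had 108 and 116, and an intergenic peak 26521 bp past the end of the gene 120 and 128. Trappc9 had 106 and 119, and a peak at -6487 bp 131 and 132, the highest of any distal peak of the 19 clusters. Both Trappc9 and H13 thus had a distal peak above their own promoter in each library. The H13 one lay close to a peak with 127 and 121 at a start of another gene. In the Igf2-H19, Dlk1-Dio3, Grb10 and Nap1l5 clusters, too, the strongest distal peak exceeded the strongest promoter peak in each library.

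Plagl1, a zinc finger growth regulator, had 87 and 82 at an inner start, and 91 and 73 at a peak at -43743 bp. Rasgrf1 had 70 and 86, and 79 and 66 in an intron. Impact had 105 and 96 before an inner start, and 110 and 91 at an intergenic peak 39061 bp past its end. Nap1l5 had the weakest promoter of the 19, and 103 and 71 at a peak in an exon of Fam13a.

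Most members with several separate starts had a peak at some of them and not at others, as did most other genes. Starts within 1 kb of each other were joined into 133 groups, and 69 of them, or 51.9%, had a shared peak. Among protein-coding members it was 64 of 111 groups, or 57.7%, against 38.7% of the 48607 groups of all protein-coding genes. Of the 29 members with several groups 6 had a shared peak at all of them, 21 at some and 2 at none. Of the 25 protein-coding ones among them 6 had one at all groups, 19 at some and 0 at none, against 6.90%, 72.3% and 20.8% of 12355 protein-coding genes with several groups. Igf2 and Gnas, known for several promoters, had a shared peak at 5 of 6 groups each, and for Igf2 the outermost start was without one.

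Snrpn had shared peaks at the inner start, at position 60005111, with signals of 78 and 72, and none at the outer start at 60140219. Mest was without a peak at its 3 outer groups and had up to 104 and 99 at the fourth. Inpp5f had 125 and 124 at the outermost group and 67 and 72 at the innermost, with none at the 4 between. The inner Inpp5f start is that of a paternally expressed short transcript in mouse.

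**Figure D3:**
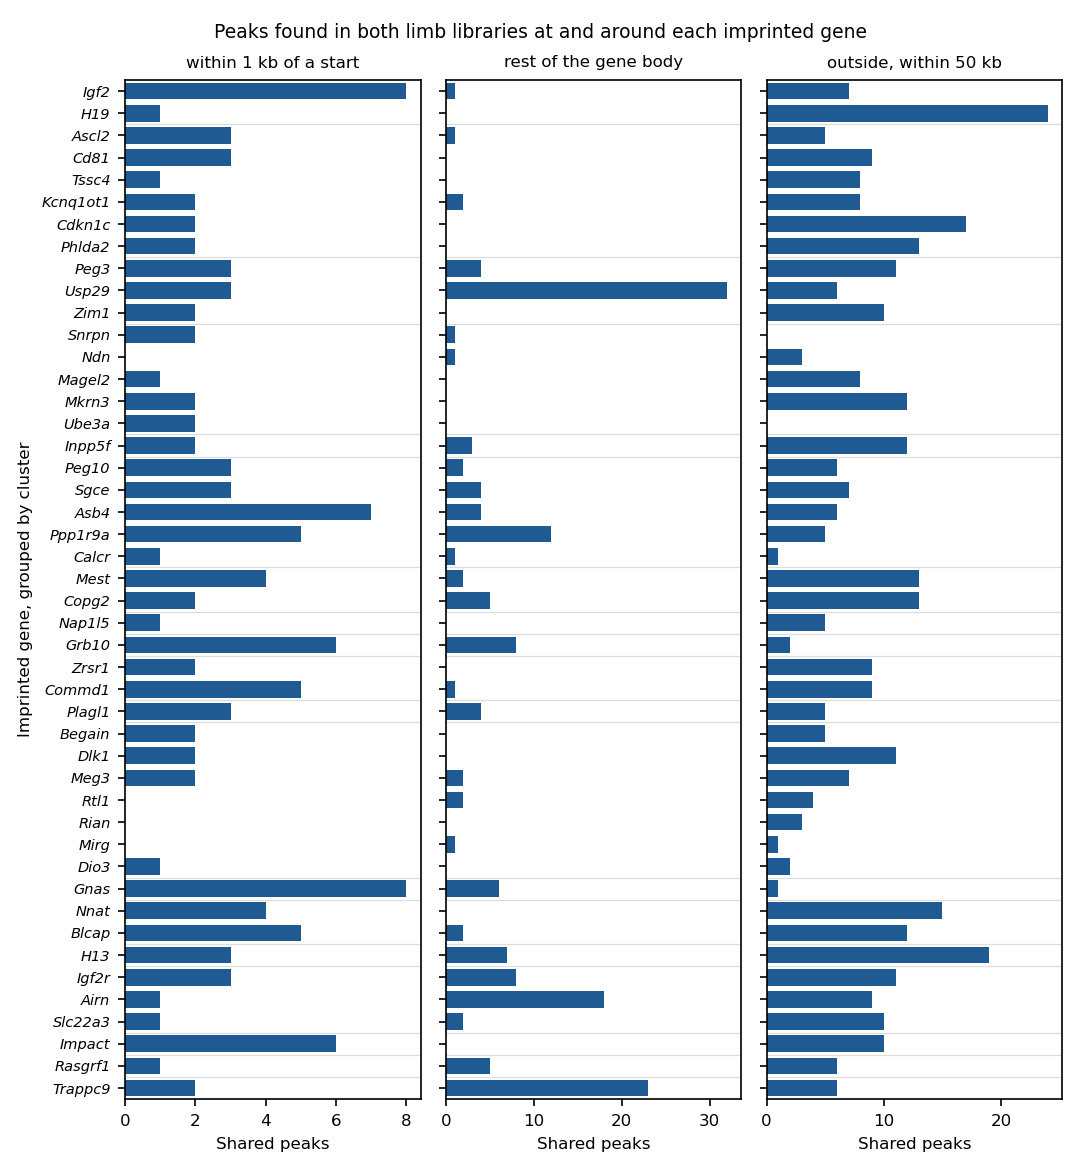
Number of shared peaks (horizontal axes) within 1 kb of a start, in the rest of the gene body and outside the gene within 50 kb, for each imprinted gene grouped by cluster. Igf2 and Gnas have 8 at their starts, Usp29 has 32 in its body, and H19 has 24 in its flanks.

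A shared peak elsewhere in the gene body was found in 29 of 46 members. Among protein-coding members it was 25 of 40, or 62.5%, against 44.5% of all protein-coding genes, with a median of 1 peak against 0. Members are longer, with a median of 31.3 kb for protein-coding members against 17.4 kb for all, so body counts cannot be compared directly. The longest, Trappc9, Ppp1r9a and Usp29 in order of length, had 23, 12 and 32 shared body peaks.

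Outside the gene and within 50 kb, 38 of 40 protein-coding members, or 95%, had a shared peak, against 88.0% of all protein-coding genes. The median was 7.5 shared peaks over all 46 members and also over the 40 protein-coding ones, and over all protein-coding genes it was 6. H19 had 24, H13 had 19 and Cdkn1c had 17. Neighbouring members share such peaks, and 10 of the 112 promoter peaks of members belonged to 2 of them. Those pairs were Peg3 and Usp29, Nnat and Blcap, Peg10 and Sgce, and Commd1 and Zrsr1.

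**Figure D4:**
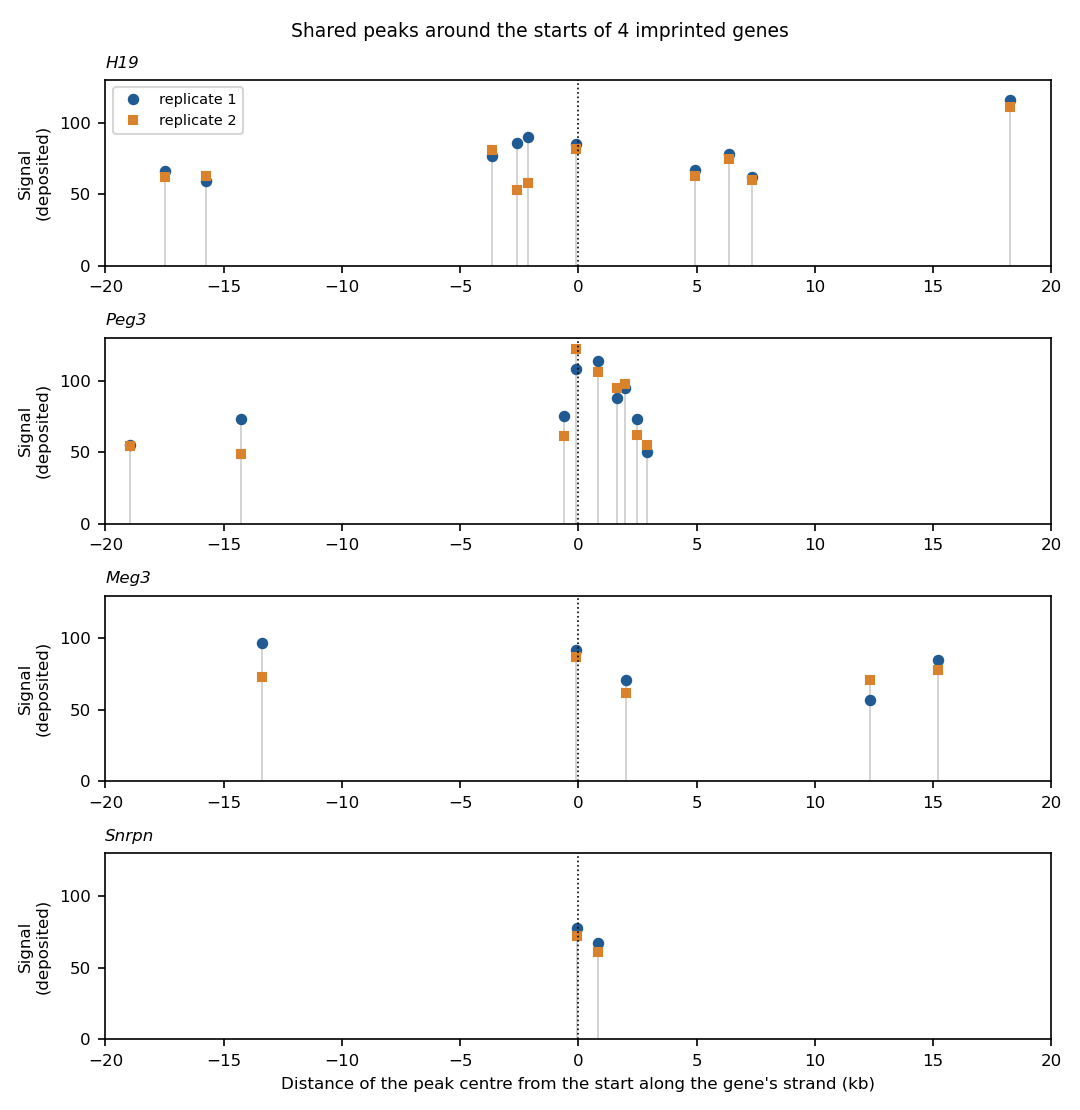
Deposited signal (vertical axes) of shared peaks against the distance of the peak centre from a start in kb along the gene's strand, for H19, Peg3, Meg3 and the inner start of Snrpn, with circles for replicate 1 and squares for replicate 2. H19 has 3 peaks between -2148 and -3648 bp, with others before its start at -88, -15758 and -17458 bp. Peg3 has a row of peaks just after its start. Meg3 has 1 at -13380 bp, and Snrpn has 2 at its start and no other within the plotted range.

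The words were counted in windows of 300 bp at shared peaks. The ZFP57 word was found in 22.3% of 112 promoter windows of members, against 19.9% of 30455 windows at starts of all protein-coding genes. At starts of the 13 members with a germline region at the start it was in 12 of 32 windows, or 37.5%. The YY1 word was in 5.36% of member windows against 6.42% of all, and either CTCF word in 28.6% against 33.3%. Of these shares, those over all member promoters were close to those of other genes.

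Away from starts, either CTCF word was in 76 of 330 windows around members, or 23.0%, against 17.7% of 83771 distal windows. The ZFP57 word was in 8.18% against 5.56%. GC content was also higher around members, with a median of 50% against 47.7%, and its part in these shares was not tested. At starts the median GC content was 61% against 60.7%, and the ratio of observed to expected CpG was 0.693 against 0.684. A matching word says nothing on whether the factor was bound.

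Members were also set apart by which copy is known to be expressed. Of 21 paternally expressed members 19 had a shared promoter peak, with median percentiles of 88.7 and 89.1 in replicates 1 and 2. Of 10 maternally expressed members 8 had one (92.1 and 92.6), and of 15 members whose imprinting is limited to some tissues or transcripts 15 had one (95.1 and 95.5). The median hotspot width was 636 and 867 bp in the paternal, 816 and 837.5 bp in the maternal and 1232 and 1291 bp in the limited class. The limited class was thus highest in both measures, and the median number of starts was 6 in it, 6 in the maternal and 3 in the paternal class. Of all protein-coding genes 67.9% had a shared promoter peak, with median percentiles of 94.8 and 95.1 and median widths of 991 and 1139 bp. The percentiles of the limited class were thus close to those of all protein-coding genes, and those of the paternal and maternal classes lay below them.

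All 13 members with a germline region at the start had a shared promoter peak, as did the 8 with one inside the gene and the 3 with one upstream. Of the 22 others 18 had one. The 4 without a promoter peak by GENCODE starts are all members with no germline region of their own. Over all genes the share with a peak was 67.9% of protein-coding and 33.1% of noncoding RNA genes. The median number of starts was 6 with a germline region at the start, 5.5 inside the gene and 7 upstream, against 4 in the 22 others. The part of start number in these counts was not tested.

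Taking the span of the members plus 50 kb on each side, the 19 clusters held 504 shared peaks in 6190.4 kb. That is 8.14 per 100 kb, against 5.81 around all protein-coding genes. It ranged from 3.26 in the Snrpn-Ube3a cluster to 20.4 at Igf2-H19 and 20.8 at H13. Of the 504 peaks 174, or 34.5%, lay within 1 kb of a start of any gene, 194 in introns, 117 between genes and 19 in exons. Of all 118491 shared peaks 83771 lay further than 1 kb from any start.

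Each library held 704 peaks in the clusters. Of them 136 in replicate 1, or 19.3%, and 170 in replicate 2, or 24.1%, were private, with no overlap to any peak or hotspot in the other replicate. The private share was 21.7% ± 3.42 in the clusters and 21.1% ± 0.418 around all protein-coding genes (SD, n = 2 each). Private peaks were weak, with a median percentile of 28.4 in replicate 1 and 31.6 in replicate 2.

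The private peaks were spread unevenly over the clusters. In replicate 2 they were more numerous at Igf2-H19 (3 in replicate 1 and 14 in replicate 2), Dlk1-Dio3 (13 and 30), Impact (1 and 10) and Grb10 (0 and 6). In replicate 1 they were more numerous at Mest-Copg2 (19 and 6), Nnat-Blcap (15 and 4), Rasgrf1 (9 and 0) and Plagl1 (8 and 2). What sets these apart was not tested, and no cluster has more than 2 libraries to judge its spread.

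**Figure D5:**
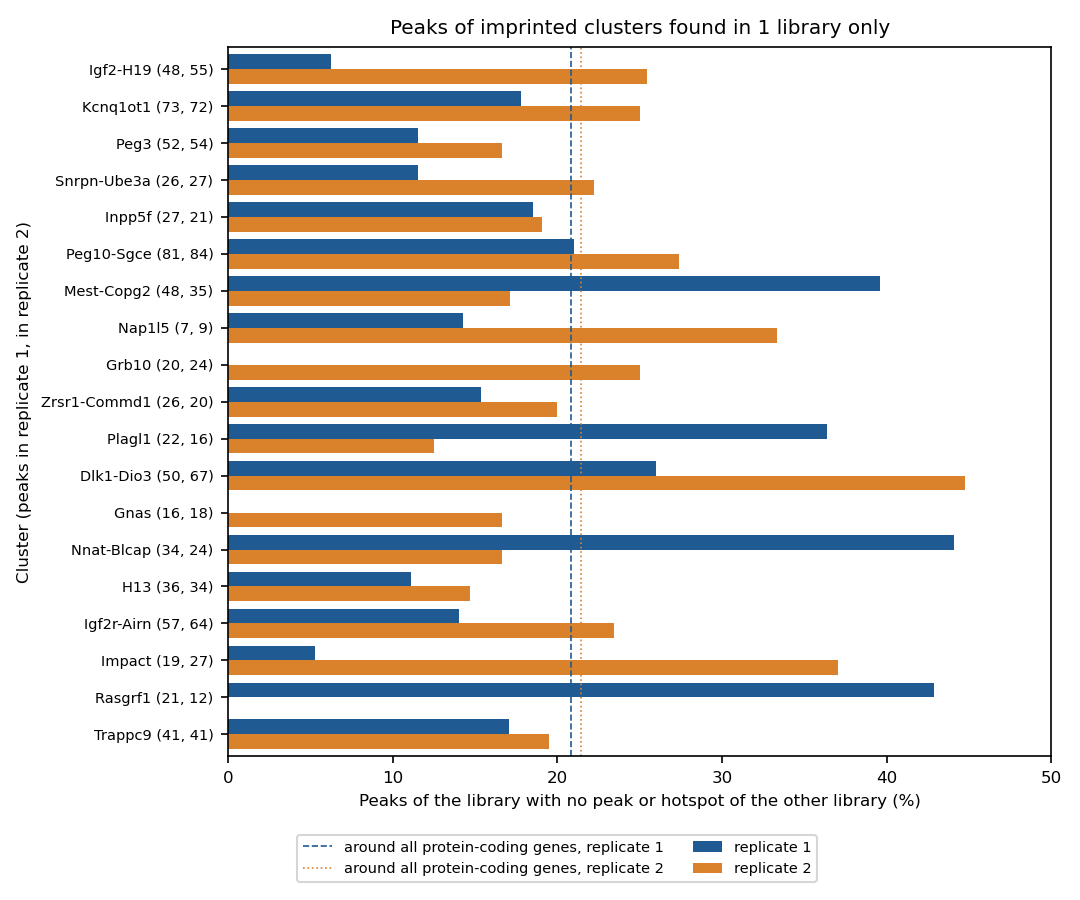
Share of the peaks of each library (horizontal axis, percent) that overlap no peak or hotspot of the other, for 19 imprinted clusters, with the number of peaks in replicate 1 and replicate 2 beside each name and lines for the share around all protein-coding genes, 20.8% and 21.4%. Dlk1-Dio3 reaches 44.8% in replicate 2 and Nnat-Blcap 44.1% in replicate 1, while Grb10 and Gnas have none in replicate 1 and Rasgrf1 none in replicate 2.

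Among genes known to set, keep or remove imprints, all 17 listed had a shared promoter peak, against 67.9% of all protein-coding genes. They were listed with earlier results of these data known, so the count only describes them. The 10 that keep the imprint, among them Zfp57, Trim28, Dnmt1 and Ctcf, had median percentiles of 97.7 and 96.8. Dppa3, an egg factor that protects methylation, lay below the median of both lists with signals of 34 and 24, as did Dnmt3l, the germ cell cofactor of the de novo methyltransferases, with 45 and 24. Zfp57 itself had 95 and 77.

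Of 24 genes that neighbour the members in the same clusters 15 had a shared promoter peak, or 62.5%. The share was 67.9% of all protein-coding genes and 33.1% of noncoding RNA genes. The list mixes both types, Zim2, Zim3, Snhg14 and Peg13 being noncoding. It also does not separate imprinted neighbours from others, so it is not a control set. Among the neighbours with no promoter peak in either library were Th, Ins2 and Cpa4, known for catecholamine synthesis, insulin and a carboxypeptidase. Kcnq1, the channel gene that hosts Kcnq1ot1, had no promoter peak in replicate 1 and one with a signal of 33 in replicate 2, while its body held 23 shared peaks.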

How the data were processed

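DNase-seq of 1 group, limb of B6NCrl embryos at 11.5 days, was analysed in 2 biological replicates. The authors called peaks and hotspots for each library on its filtered alignment to mm10, per the deposited file descriptions. How reads were aligned and regions called is not given in the sources used here. Deposited peaks carry a signal value of unstated scale, used only to rank peaks within a list, and the deposited hotspots carry a −log10 q value from 1.3 to a ceiling of 100, which was not used. The lists hold no read counts, which leaves the depth unknown, and intervals based on depth are not printed.

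Shared peaks are merged peaks of both libraries that overlap by at least 1 bp. A peak was assigned to a promoter where its centre was 1 kb or less from a start of any transcript in GENCODE M21, otherwise to the body or to the 50 kb on each side. All members, a set of 46, matched by symbol. The set of all protein-coding genes holds the members too. Values are given in full for the member with the strongest shared promoter peak of each cluster, for members without one, and for the strongest shared peak of each cluster further than 1 kb from any start. Clusters, expressed copy, germline regions and the gene lists came from background knowledge. Members and lists were chosen with earlier results of these data known. Counting was tested on simulated data. Python 3.11.15, NumPy 2.4.6 and Matplotlib 3.10.9 were used. Alternatives changed the window, starts, overlap, reach, signal threshold and region type, or left out a library.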

Additional observations from a re-analysis of the deposited data

How the results depend on the processing

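The number of members with a shared promoter peak was 42 and lay between 38 and 44 under every alternative run. It was 38 with only the outermost start of each gene, where Igf2, Snrpn, Calcr and Mest were without one, and 40 with peaks at or above the median signal, without Nap1l5 and Slc22a3. An overlap of 50% of each peak gave 41, without Calcr, and a window of 2 kb gave 44, with Ndn and Mirg. The median of 1 shared body peak became 2 in each library alone. The median of 7.5 shared peaks within 50 kb was 10.5 in each library alone, 5.5 with peaks at or above the median signal, 7 with an overlap of 50%, 6 with hotspots, 3 with a reach of 20 kb and 13.5 with 100 kb. The median percentile of the strongest promoter peak, 92.6 as the mean of both libraries, ranged from 92.1 to 93.2 in the libraries alone. It was 91.4 with a window of 500 bp, 89.1 with the outermost starts and 90.9 with RefSeq starts, which were chosen after seeing the data. The median hotspot width of 1046.5 bp was 889 and 1055.5 bp in the libraries alone, 909 bp with 500 bp and 834.5 bp with the outermost starts. The private share stayed between 21.3% and 21.7%, and it cannot be had from 1 library. The window and reach change these values by construction, and the cause of the others was not tested. Depth is unknown, so a missing peak may be one not detected. No paired analysis was possible because there is 1 group.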
